A study of Rattus norvegicus with 6 samples.

Results

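Oxidative phosphorylation in the rat kidney inner medulla was examined through the genes that encode the 5 complexes of the inner mitochondrial membrane. Members were taken by name from a table of normalized counts: Nduf genes of complex I, Sdha to Sdhd of complex II, Uqcr genes of complex III, Cox4 to Cox8 genes of complex IV and Atp5 genes of complex V, with every row on the mitochondrial chromosome (M). This gave 268 of 27321 rows, 93 by name and 175 on chromosome M. Of the named rows, 73 stood for 1 annotated feature each (31 in complex I, 4 in complex II, 6 in complex III, 15 in complex IV and 17 in complex V), and 20 named several features. Chromosome M held 9 rows with protein-coding genes, 7 other rows and 159 rows that named several features, called joint rows here.

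The libraries came from male Sprague-Dawley rats aged 3 months, with no transgene or deletion named in any group. Rats of the diabetic group received streptozotocin (STZ), which kills the insulin-producing cells of the pancreas, in citrate buffer through the tail vein at 62.5 mg/kg, and control rats received the vehicle by the same route. The inner medulla tip was taken 15 days later, and 3 control and 3 STZ libraries were made from its RNA. STZ also acts outside the pancreas, and there was no group that received STZ and insulin, so the toxin and the diabetes cannot be told apart.

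Complexes I to IV form the respiratory chain: complex I accepts electrons from NADH, complex II from succinate, complex III passes them to cytochrome c and complex IV passes them to oxygen. Complexes I, III and IV pump protons across the inner membrane, and complex V, the ATP synthase, uses the returning protons to make ATP. Most subunits are encoded in the nucleus, whereas a small set of core subunits of complexes I, III, IV and V is encoded by mitochondrial DNA and transcribed there as long precursors that are cut into separate RNAs. The inner medulla tip is poorly supplied with oxygen and relies largely on glycolysis, while intercalated cells and the thick ascending limb are rich in mitochondria.

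Between 3412311 and 5575171 reads lay on annotated features per library, of which chromosome M took 6.38 to 7.72% in control and 5.60 to 7.02% in STZ libraries. The tissue label was checked on marker genes. The water channel Aqp2 of collecting duct principal cells stood at 2137 to 3641 normalized counts in control and 3824 to 7413 in STZ libraries. A summed list of 5 thin limb genes stood at 189457 to 264682. Aldose reductase Akr1b1 made up 98.9% of it, so the sum gives the level of that gene and says little of thin limbs. The thick ascending limb marker Umod was also present, at 281 to 941 in control and 50.2 to 84.1 in STZ libraries. By the column names the control libraries shared sequencing lane 3 while the STZ libraries ran in lanes 6, 7 and 8, and no lane held both groups, so an effect of lane cannot be told apart from that of STZ.

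Promoter sequences from RefSeq (assembly GRCr8, a later build than the rn4 of the table) were matched by symbol for 63 of the 73 named members. For 4 of these (Ndufa10, Ndufa13, Ndufs6 and Atp5e) the promoter lies on another chromosome than the row of the table, so they were left out and 59 remained. In windows of 300 bases, from 250 bases before to 50 after the annotated start, exact matches on either strand to the NRF1 motif CGCATGCG were present in 6 of 59 members (10.2%) and in 1.81% of 27457 promoters. The ETS motif CCGGAAGT was found in 7 of 59 (11.9%) against 4.01% of all promoters, and the YY1 motif AAGATGGC in 14 of 59 (23.7%) against 3.44%. These factors are known regulators of nuclear genes for mitochondrial proteins, and the counts describe letters in a window, not binding. The 150 bases upstream of the start are shown for Ndufv3, the nuclear member that passed the test below, for Ndufv1, which encodes the flavin-binding subunit of the same complex and did not pass, and for 1 holder each of the ETS and NRF1 motifs, Cox8a and Atp5g2. They lie at chr20:9613636-9613785 (plus strand) for Ndufv3, chr1:210734892-210735041 (minus strand) for Ndufv1, chr1:213833624-213833773 (minus strand) for Cox8a and chr7:135678219-135678368 (minus strand) for Atp5g2. Capitals mark an exact ETS or NRF1 match on either strand, and sequences run in the direction of the gene.
Ndufv3: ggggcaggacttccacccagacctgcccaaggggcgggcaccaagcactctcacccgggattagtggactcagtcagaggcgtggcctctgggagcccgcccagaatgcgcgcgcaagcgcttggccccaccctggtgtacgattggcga
Ndufv1: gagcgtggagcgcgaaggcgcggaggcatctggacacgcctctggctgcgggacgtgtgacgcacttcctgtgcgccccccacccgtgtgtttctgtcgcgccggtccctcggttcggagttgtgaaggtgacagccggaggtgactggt
Cox8a: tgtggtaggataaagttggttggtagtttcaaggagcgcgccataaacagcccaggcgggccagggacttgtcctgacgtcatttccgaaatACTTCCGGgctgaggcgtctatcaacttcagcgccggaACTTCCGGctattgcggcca
Atp5g2: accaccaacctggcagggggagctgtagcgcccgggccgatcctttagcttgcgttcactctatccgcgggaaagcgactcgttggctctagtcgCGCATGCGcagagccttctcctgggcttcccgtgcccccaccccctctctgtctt
None of the 3 motifs was matched in the whole windows of Ndufv3 or Ndufv1.

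The first comparison asked which members differed between STZ and control inner medulla. In STZ libraries 2 members were lower, both in complex I: nuclear Ndufv3, and the mitochondrial row that covers NU5M and NU6M, the ND5 and ND6 subunits of the proton-pumping arm. No member was higher. The 2 calls were made among 125 members tested, by limma on log2(normalized count + 1) with Benjamini-Hochberg adjustment over 13486 rows with a mean of at least 5. Over all 13486 rows 283 passed the same threshold (2.10%), 158 higher (1.17%) and 125 lower (0.927%) in STZ, so the share among the members was near the background. With totals set equal over reads off chromosome M the split over all rows was 175 higher and 209 lower. At an unadjusted p under 0.05 there were 22 of the 125 members, against 14.7% of all rows. They were 11 of 43 joint rows, which name genes of other rows too, and 11 of 82 rows with 1 feature. Among the nuclear rows they were 6 of 70. All 3 STZ values lay below all 3 control values in 17 members and above them in 6, while 10.3% and 10.1% of all rows did so.

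The 125 tested members were 70 nuclear rows, the 9 mitochondrial protein-coding rows, 3 other mitochondrial rows and 43 joint rows. The 143 members below the filter were 116 mitochondrial and 20 nuclear joint rows, 4 short mitochondrial rows, and Cox8b, Cox8c and Ndufb4l1. Of the 143, 92 had no library with more than 3 reads, among them Cox8b and Cox8c, isoforms of a complex IV subunit best known from muscle and testis.

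**Figure D1:**
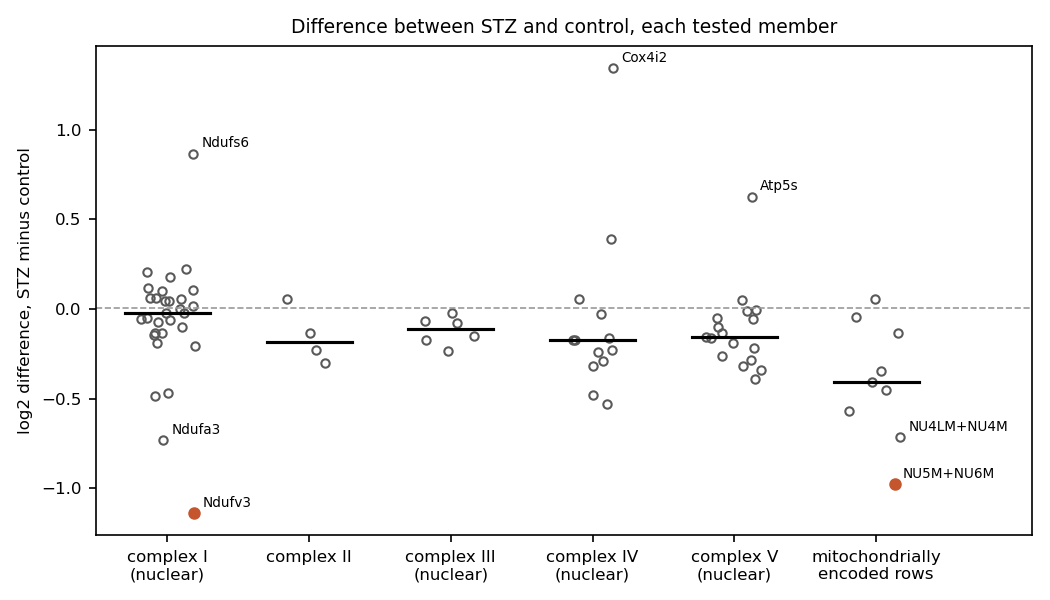
Log2 difference (STZ minus control, log2(normalized count + 1) scale, vertical axis) of each tested member with 1 feature, by complex. Filled points passed an adjusted p of 0.05, black bars are medians and the dashed line is the median of all 13486 rows (0.01). Ndufv3 (-1.14) and NU5M+NU6M (-0.98) are the 2 filled points, and the nuclear points otherwise gather near 0 with Cox4i2 (1.35), Ndufs6 (0.87), Atp5s (0.63) and Ndufa3 (-0.73) farthest out.

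The mitochondrially encoded rows differed in size of change. The table merged overlapping neighbours into single rows, named here by their proteins without the species suffix, so that NU4L shares a row with NU4, NU5 with NU6, and COX3 with ATP8 and ATP6. NU5M+NU6M (M:11735-14061, rn4) stood at 4157, 3989 and 3363 normalized counts in control and 2150.5, 1733 and 1966 in STZ libraries. The groups did not overlap, and STZ was lower by 0.98 on the log2 scale (SE 0.19, 95% interval -1.40 to -0.55, limma adjusted p = 0.0301). ND6 lies on the opposite strand from its neighbours, and strand use in the counting was not given, so ND5 and ND6 cannot be separated.

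The other rows of complex I went the same way without passing. NU4LM+NU4M, for 2 membrane subunits, read 15693, 14662 and 13920.1 in control and 10619.6, 8593 and 7926 in STZ libraries, a log2 difference of -0.72 (SE 0.23, limma adjusted p = 0.155). NU2M read 8533, 8029 and 7070.3 against 5661, 4593 and 5686, a log2 difference of -0.57 (limma adjusted p = 0.223). Neither pair of groups overlapped. NU1M had a log2 difference of -0.35 and NU3M of -0.45, both with overlapping groups. Summed over these 5 rows, the mitochondrially encoded part of complex I came to 46905, 42262 and 41918 normalized counts in control and 34073, 29964 and 26027 in STZ libraries, a ratio of means of 0.687.

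Rows of the other complexes lay closer to 0, apart from cytochrome b. CYB, the mitochondrially encoded subunit of complex III, read 14778, 15385 and 15230.2 in control and 13252, 10863 and 10265 in STZ libraries without overlap, a log2 difference of -0.41 (SE 0.23, limma adjusted p = 0.460). The catalytic subunit COX1 of complex IV read 45681, 41453 and 44977 against 45916, 41815 and 40637, a log2 difference of -0.04 (95% interval -0.66 to 0.57). COX2 differed by 0.05 and the COX3+ATP8+ATP6 row, shared by complexes IV and V, by -0.13. The groups overlapped in these 3 rows. The 9 rows had a median log2 difference of -0.41, and the difference between the complex I rows and the complex IV rows was not tested.

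**Figure D2:**
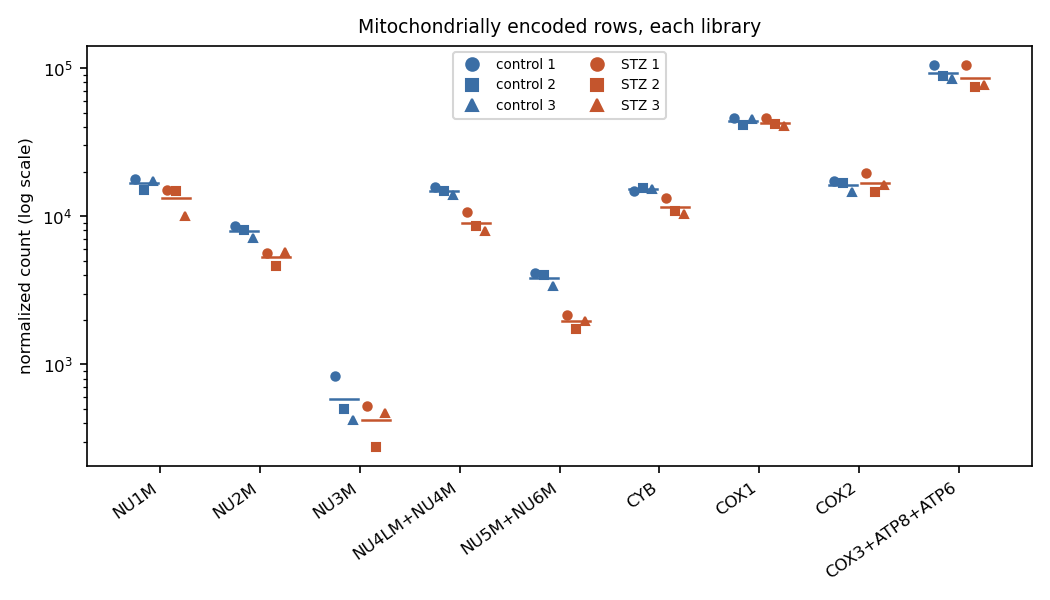
Normalized counts (log scale) of the 9 mitochondrially encoded rows in each library, with bars at the group means. All 3 STZ libraries lie below all 3 control libraries for NU2M, NU4LM+NU4M, NU5M+NU6M and CYB, and the groups overlap for COX1, COX2 and COX3+ATP8+ATP6.

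Within each library the same rows were set against COX1, which removes the scale of the library. NU5M+NU6M came to 9.10, 9.62 and 7.48% of COX1 in control and 4.68, 4.14 and 4.84% in STZ libraries. NU4LM+NU4M came to 34.4, 35.4 and 30.9% against 23.1, 20.6 and 19.5%. CYB came to 32.4, 37.1 and 33.9% against 28.9, 26.0 and 25.3%. Groups did not overlap for these 3 rows or for NU1M and NU2M, while COX2 gave 37.7, 40.1 and 32.5% against 42.7, 34.9 and 40.2%. These percentages leave out the joint rows described below, with which COX2 came to 94.8, 77.1 and 84.2% of COX1 in control and 112, 88.4 and 96.5% in STZ libraries, still overlapping. NU5M+NU6M then came to 7.97, 8.96 and 7.06% against 4.37, 3.94 and 4.54%.

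**Figure D3:**
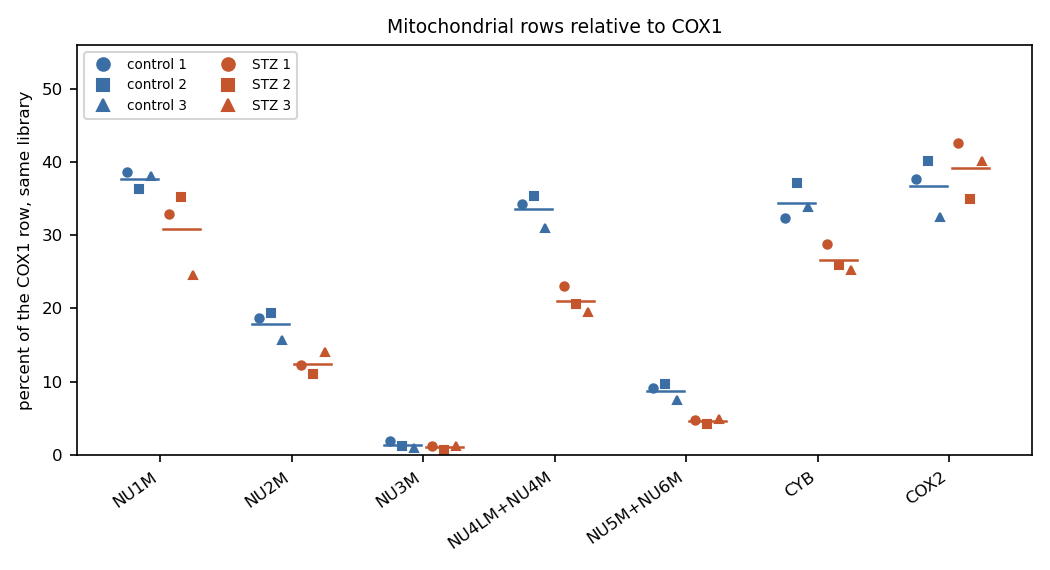
Each mitochondrial row as a percent of the COX1 row of the same library (vertical axis), with bars at the group means. NU5M+NU6M averages 8.73% in control and 4.55% in STZ libraries and NU4LM+NU4M 33.6% and 21.1%, while COX2 averages 36.8% and 39.3% with mixed points. Joint rows are left out.

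Levels between these rows, without joint rows, were compared per kb of row length. COX3+ATP8+ATP6 led at 57067 ± 6842 normalized counts per kb in control and 52498 ± 10345 in STZ libraries (SD, n = 3), and NU5M+NU6M was lowest at 1649 ± 180 and 838 ± 89.9 (SD, n = 3). The order of group means, then COX1, COX2, NU1M, CYB, NU4LM+NU4M, NU2M, NU3M and NU5M+NU6M, was the same in both groups. Neighbours in it were ranked alike in all 6 libraries except COX1 over COX2 and NU4LM+NU4M over NU2M, in 5 of 6 each, and NU3M over NU5M+NU6M, in 4 of 6.

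Joint rows name the same genes, and their share was uneven. Adding to each protein-coding row the joint rows that name it and no other protein-coding row, joint rows made up 62.5% of the sum for COX2, 34.4% for CYB and 1.47% for NU5M+NU6M. With these sums in place of the rows, the same 2 members passed, but COX2 stood above COX1 per kb in all 6 libraries, at 50570 to 73349 in control and 57692 to 82008 in STZ libraries, against 27881 to 32879 and 27351 to 31164 for COX1. The rank of COX1 and COX2 in the order above therefore turns with the rows counted.

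Of the remaining mitochondrial rows, 3 were tested and none passed. ENSRNOG00000030478 (M:67-1025) read 2820.3, 2382 and 1853 against 1605, 1544 and 1215, without overlap, a log2 difference of -0.68 (limma adjusted p = 0.146). ENSRNOG00000043866 (M:1093-2664), the longer of these rows, had a log2 difference of -0.17 with overlapping groups. The third was 69 bases long, with a log2 difference of -0.79 (limma adjusted p = 0.321).

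Ndufv3 was the nuclear member that fell. It encodes a small accessory flavoprotein subunit next to the NADH-binding site of complex I. It stood at 820.1, 749 and 508 normalized counts in control and 365, 279.9 and 286 in STZ libraries (chr20:9951108-9960265, rn4). The lowest control library lay above the highest STZ library, and STZ was lower by 1.14 on the log2 scale (SE 0.22, 95% interval -1.62 to -0.65, limma adjusted p = 0.0270). A short row under the name NDUV3_RAT, of the same protein, is outside the naming rule. It read 20.5, 19.1 and 14.5 against 8.36, 11.9 and 7.03, a log2 difference of -0.93 (limma adjusted p = 0.298), and reads that both loci share cannot be assigned.

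Leaving out 1 library left the differences of similar size, from -1.34 to -0.999 for Ndufv3 and from -1.07 to -0.89 for NU5M+NU6M, but the calls were often lost. Without control library 1, control library 2, STZ library 2 or STZ library 3 the adjusted p of Ndufv3 was 0.0789, 0.135, 0.118 and 0.0842, and without control library 1, control library 2, STZ library 1, 2 or 3 that of NU5M+NU6M was 0.0650, 0.151, 0.0744, 0.150 and 0.0765. Without an intensity trend in limma the values were 0.169 and 0.154, and over 18 alternatives they ranged from 6.80e-05 to 0.169 for Ndufv3 and from 6.11e-06 to 0.154 for NU5M+NU6M.

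The other 29 tested nuclear members of complex I did not pass, and their group as a whole lay at the background. The median log2 difference of the 30 was -0.02, against 0.01 for all rows. Ndufv1 and Ndufv2, which carry the flavin and an iron-sulfur cluster beside Ndufv3, differed by -0.13 and 0.12. Ndufs1, the largest iron-sulfur subunit, read 980.1, 916 and 804 against 695, 624 and 609 without overlap, a log2 difference of -0.48 (SE 0.17, limma adjusted p = 0.211). Ndufa3, an accessory membrane subunit, read 4405, 2472 and 2158 against 1837, 1770.5 and 1579, a log2 difference of -0.73 (SE 0.26, limma adjusted p = 0.202). Control library 1 was far above the others for Ndufa3, and without it the log2 difference was -0.42. Ndufs6 read 9.23, 9.15 and 10.02 against 18.6, 15.8 and 20.1, a log2 difference of 0.87 (limma adjusted p = 0.291). Its row spans 415 bases and holds few reads, and it is among 6 nuclear member rows shorter than 500 bases. The others are Ndufa13, Ndufb4l1, Cox7a2l2, Atp5e and Atp5hl1, and a longer copy elsewhere could share their reads. The Ndufs6 row lies on chromosome 2 and the RefSeq gene on chromosome 1, so the row may be a copy of the gene. The same holds for Ndufa13, Atp5e and the longer row Ndufa10 (chromosome 6, RefSeq gene on chromosome 9). By subunit class, the medians were -0.01 for 10 Ndufa, 0.01 for 10 Ndufb and -0.04 for 6 Ndufs members.

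Complex II, which is also the succinate dehydrogenase of the tricarboxylic acid cycle, had no call among its 4 subunits. The flavoprotein Sdha read 2688, 2713 and 2209 in control and 2428, 2378 and 2107 in STZ libraries, a log2 difference of -0.14 (95% interval -0.55 to 0.28). The iron-sulfur subunit Sdhb differed by 0.05, and the membrane anchors Sdhc and Sdhd by -0.23 and -0.30. Sdhd did not overlap between groups (limma adjusted p = 0.484).

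None of the 6 nuclear members of complex III passed. All 6 log2 differences were negative, from -0.23 for the hinge protein Uqcrh to -0.02 for the Rieske protein Uqcrfs1, with overlapping groups in each.

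In complex IV the isoforms of subunit 4 differed in level, and whether their changes differed was not tested. Cox4i1, the general isoform, read 4915, 4017 and 3250.2 in control and 4338, 3953 and 3541 in STZ libraries, a log2 difference of -0.03 (95% interval -0.50 to 0.45). Cox4i2, an isoform known from lung and induced by low oxygen, read 118.9, 54.9 and 98.0 in control and 326, 141 and 233 in STZ libraries. Its groups did not overlap, with a log2 difference of 1.35 (SE 0.34, 95% interval 0.60 to 2.09, limma adjusted p = 0.0732), short of the threshold. The same test with a minimum mean of 20 gave 0.0474 and with no filter 0.0139, and DESeq2 gave 0.00362, with a range of 0.00362 to 0.268 over 18 alternatives. Per 100 counts of Cox4i1 in the same library there were 2.42, 1.37 and 3.01 of Cox4i2 in control and 7.51, 3.58 and 6.58 in STZ libraries.

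No other tested member of complex IV passed. Cox6a1 differed by -0.48, Cox6b1 by -0.32, the testis-type isoform Cox6b2 by -0.53 and Cox8a by -0.17, all with overlapping groups. Cox7a2l, which takes part in supercomplex assembly, differed by -0.29, and the copy Cox7a2l2 by 0.39. Cox4nb is matched by the rule but is not a subunit of the enzyme.

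Complex V, the ATP synthase, had 17 tested rows and no call. Its catalytic part was represented by Atp5a1, which read 3275, 3522 and 3132 in control and 2896, 2883 and 2399 in STZ libraries without overlap, a log2 difference of -0.28 (limma adjusted p = 0.562), and by Atp5b, with -0.05. Of the rotor ring genes, which encode the same mature protein, Atp5g1 differed by -0.19 and Atp5g2 by -0.26. Atp5e, at the lower end of the complex, differed by -0.39, and its row of 365 bases is 1 of the short rows named above. Atp5s, a coupling factor-like gene, had the highest difference, at 143.5, 145 and 219 against 282, 303 and 198. Its log2 difference was 0.63 (limma adjusted p = 0.235) with overlapping groups. Atp5s and Atp5sl are now called Dmac2l and Dmac2 in RefSeq. The rule counts both in complex V, although RefSeq no longer names them as ATP synthase genes.

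**Figure D4:**
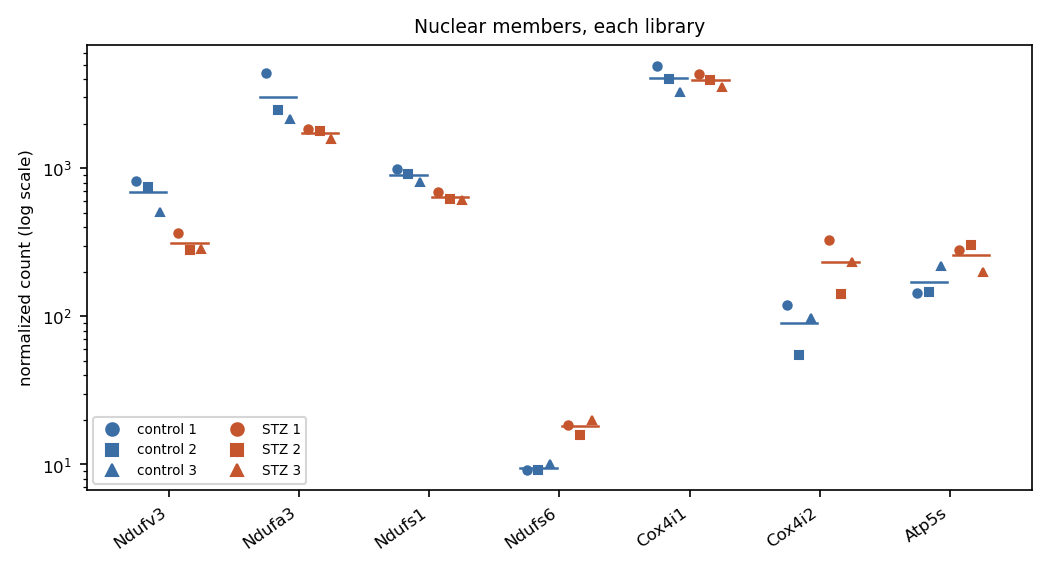
Normalized counts (log scale) in each library, with bars at the group means, for the 6 nuclear members with an unadjusted limma p under 0.05 and for Cox4i1. Ndufv3, Ndufa3 and Ndufs1 lie lower and Cox4i2 and Ndufs6 higher in all 3 STZ libraries, and Cox4i1 and Atp5s overlap.

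Between complexes, the nuclear members were compared by their medians and sums. Median log2 differences were -0.02, -0.18, -0.11, -0.17 and -0.16 for complexes I to V, beside 0.01 for all rows and -0.03 for the 764 rows with a mean of at least 1000. The summed normalized counts in STZ relative to control were 0.939, 0.888, 0.893, 0.882 and 0.906 for complexes I to V. Control library 1 was the highest of the 6 in 49 of the 70 tested nuclear members. For complex IV the sums were 21110.3, 15322 and 12810.4 in control and 16211, 13981 and 13257 in STZ libraries, which overlap, as they do for the other complexes. Without control library 1 the medians of complexes I, III, IV and V turned positive, to 0.12, 0.01, 0.06 and 0.02, and that of complex I was 0.05 without STZ library 3.

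The precision set a limit on what could be seen. The standard error of a log2 difference ran from 0.17 to 0.81 over the 70 nuclear members, with a median of 0.22. The 95% interval lay within 1 log2 unit of 0 in 60 of 70, so a 2-fold change lay outside the interval for these, and within the same limit in 5 of the 9 mitochondrial protein-coding rows.

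Some subunits carry other names in the table and were collected after the table was seen. Of these 13 rows 12 were tested and none passed, with a median log2 difference of -0.09. Atpif1, the inhibitor of ATP synthase, read 1105, 901 and 665 in control and 1540.4, 1453 and 1216 in STZ libraries without overlap, a log2 difference of 0.68 (SE 0.22, limma adjusted p = 0.155). The row holding Ndufs3 with Ptpmt1 and Kbtbd4 was lower without overlap (-0.25), and the third rotor ring gene, under the name AT5G3_RAT, differed by 0.39 with overlapping groups. The rows with Ndufa4 and with Cox7a2 differed by -0.32 and -0.19, and the cytochrome c gene Cycs by -0.09. CX6A2_RAT, the muscle isoform of subunit 6a, had no library with more than 3 reads.

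The wider pathway was followed in 9 lists with 85 tested genes, of which 0 passed by limma or edgeR, 3 passed by DESeq2 (Atpif1 and Vegfa among them), and 13 (15.3%) had an unadjusted limma p under 0.05. Over all rows 14.7% had such a p, and DESeq2 called 599 of the 9035 rows to which it gave an adjusted value (6.63%). The medians were -0.22 for 12 complex I assembly factors, -0.02 for 6 of complexes II and III, 0.08 for 11 of complex IV and -0.12 for 4 of complex V, the last including Atpif1. The 16 tricarboxylic acid cycle enzymes had a median of -0.12, the 7 tested carriers and channels 0.11, and 3 chain proteins with names outside the rule 0.17.

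Of 15 regulators of mitochondrial gene expression, none passed, and their median was -0.03. Tfb1m, a methyltransferase of mitochondrial ribosomal RNA, read 109, 101 and 76.8 in control and 65.0, 50.4 and 54.2 in STZ libraries without overlap, a log2 difference of -0.74 (limma adjusted p = 0.139). Esrra and Ppargc1a, a receptor and a coactivator of mitochondrial genes, differed by -0.81 and -0.70 with overlapping groups, and Tfam, which packages mitochondrial DNA, by -0.42. Of the 15, 10 had negative and 5 positive differences, and Polg2 was higher without overlap (0.41, limma adjusted p = 0.425). Of 11 genes known to respond to low oxygen or to regulate that response, 9 had positive differences, with a median of 0.25. Over all 13486 rows 6814 were positive. Ca9 and Adm went the other way (-0.63 and -0.12), and Bnip3 and Higd1a lay near 0 (0.08 and 0.06). Pdk1, a kinase that inhibits pyruvate dehydrogenase, read 9.23, 9.92 and 18.9 in control and 34.4, 20.8 and 38.1 in STZ libraries. Its log2 difference was 1.25 (limma adjusted p = 0.139). Vegfa read 64.6, 34.3 and 59.0 against 171, 61.3 and 148 (1.17, limma adjusted p = 0.155).

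Markers of cell types moved with condition. In bulk tissue fewer cells of a type in the kidney, fewer in the dissected piece and less RNA per cell cannot be told apart. How alike the dissections of the 2 groups were is not given. Over all rows 0.927% passed as lower and 1.17% as higher in STZ. Among markers of intercalated cells, 5 of 7 tested passed as lower in STZ (Atp6v1b1, Atp6v0d2, Atp6v1g3, Slc4a1 and Rhcg). Foxi1 and Slc4a9 were also lower without overlap (-1.03 and -0.67) but did not pass. The list summed to 1366 to 2883 normalized counts in control and 556 to 643 in STZ libraries. Among thick ascending limb markers 2 of 5 passed as lower (Umod and Egf), with sums of 2721 to 3488 and 1613 to 2825. Cldn10, with a log2 difference of 0.25 and overlapping groups, made up 64.2% of this sum. Slc12a1 and Ppp1r1a were lower without overlap (-1.47 and -1.20) but did not pass. Among 6 tested endothelial markers Emcn and Plvap passed as lower and Vwf as higher, with sums of 7039 to 9108 and 3842 to 4217. Cdh5 and Tek were lower without overlap (-0.56 and -0.61) but did not pass, and Pecam1 overlapped (0.04). Principal cell markers had no call among 7 (sums 11232 to 19481 and 18829 to 36209). Without passing, Aqp2, Scnn1b and Scnn1g were higher (0.84, 0.79 and 0.93) and Hsd11b2 lower (-0.83), each without overlap. Proximal tubule markers had none among 7 (sums 226 to 462 and 238 to 337). Thin limb markers had none among 5 and leukocyte markers none among 8 (sums 1057 to 2424 and 1489 to 2365). Of these 2 lists, Aqp1 and Cd14 were lower without overlap (-0.48 and -0.70). Urothelial markers Upk1b and Upk3a of 5 passed as higher, with sums of 85.4 to 132 and 440.1 to 517. Upk2 was higher without overlap (0.96) but did not pass. Pdgfra of 5 tested interstitial markers passed as higher, with sums of 7432 to 9072 and 4534 to 10736. No marker found in the table stayed at or under 3 reads in every library. The part of these shifts in the values of Ndufv3, NU5M+NU6M and the other members was not tested.

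**Figure D5:**
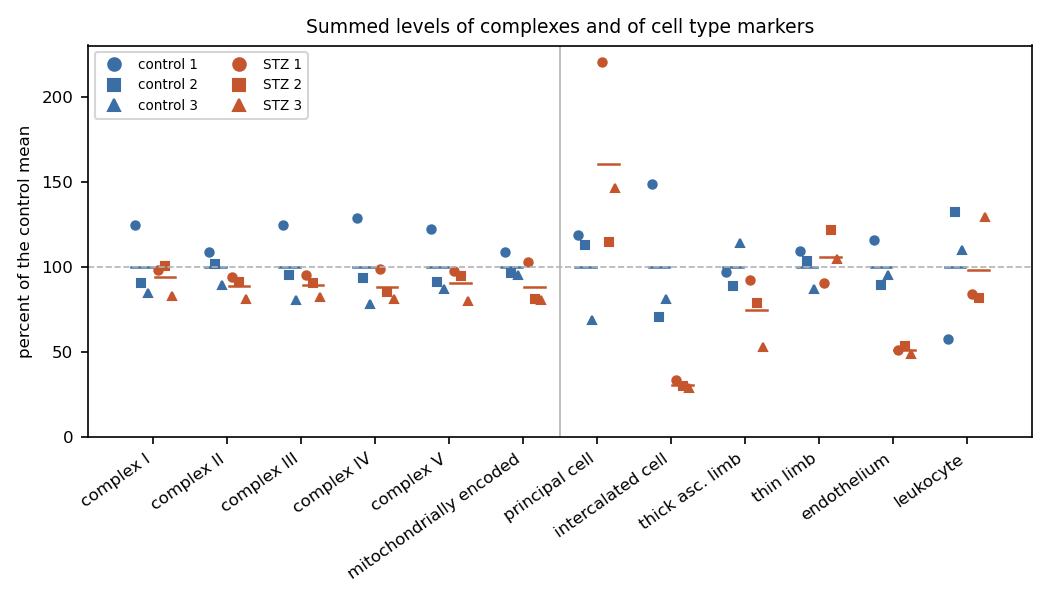
Summed normalized counts of nuclear members by complex, of the mitochondrially encoded rows and of cell type marker lists, as a percent of the mean of the 3 control libraries (vertical axis), with bars at the group means. Sums of the complexes overlap between groups, while intercalated cell and endothelial marker sums are lower in all 3 STZ libraries than in any control library. Cldn10 makes up 64.2% of the thick ascending limb sum and Akr1b1 98.9% of the thin limb sum.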

How the data were processed

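RNA of 3 control and 3 STZ inner medulla tips was turned into cDNA with a PCR-based kit and sequenced without molecular identifiers. The authors mapped reads to rn4 with STAR 2.3.1t, kept unique matches, counted them per Ensembl gene, and deposited 1 signal table: gene counts divided by a DESeq 1.16.0 size factor per library. How reads were assigned to genes, and whether by strand, is not given in the sources used here. The table held no columns besides those of the 6 libraries, and the authors' own fold changes and p-values were not used.

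Members were found by name pattern and by chromosome. A row whose name holds several features separated by commas (2720 of 27321 rows) runs in position from the first named feature to the last, as held for 2320 of 2323 such rows that could be checked, and a plus sign joins overlapping genes. The values were whole multiples of 1 read in 100% of cases (tolerance 0.001), so whole reads were recovered for edgeR 4.0.16 and DESeq2 1.42.0 as alternatives.

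The main test was limma 3.58.1 with an intensity trend (R 4.3.3), two-sided, on log2(normalized count + 1) over 13486 rows with a mean of at least 5, adjusted by Benjamini-Hochberg at 0.05. Fold changes are on that scale, which understates changes of low genes. Group labels come from the sample titles, and whether libraries are separate animals is not spelled out there, so p-values measure the spread between these samples. With 3 against 3 libraries an exact two-sided permutation test cannot go below 0.1. The fitting code was tested on simulated data. Figures and tables were made with Python 3.11.15, pandas 2.3.3 and matplotlib 3.10.9.

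Named are members past the threshold or with an unadjusted p under 0.05, the extremes of each complex, isoform pairs, succinate dehydrogenase subunits, mitochondrial rows and members below the filter. Other members and list genes were named as further examples after their values were seen. The values of 1 list gene are not reported here. Members and lists were chosen with earlier results of these data known. Alternatives changed the pseudocount, filter, scaling, prior variance, test, replicate block and each library, and after the data were seen, a scaling without chromosome M and the summing of mitochondrial rows.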

Additional observations from a re-analysis of the deposited data

How the results depend on the processing

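Over all rows, 283 calls became 31 without an intensity trend, 599 with DESeq2, and 88 to 352 on leaving out 1 library. Among members, 2 calls became 4 with no filter, 4 with equal library totals, 4 with totals without chromosome M, 0 without an intensity trend and 8 with DESeq2. The added members were NU4LM+NU4M and ENSRNOG00000030478 under both scalings, Cox4i2 and a joint row of COX3 with NU1M under no filter, and all of these with NU2M and Ndufa3 under DESeq2. On leaving out 1 library the range was 0 to 2: both calls held without control library 3, only Ndufv3 without STZ library 1, and neither without the others. Of the pathway genes, 0 calls became 2 with equal library totals or totals without chromosome M (Atpif1 among them), 3 with DESeq2, and 0 to 1 on leaving out 1 library (Esrra without control library 3, Vegfa without STZ library 2). The cause was not tested.

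A replicate block gave 561 calls over all rows, 6 among members (with Cox4i2, ENSRNOG00000030478 and 2 joint rows added) and 3 among pathway genes. Deviations of equally numbered libraries from their group means correlated at 0.395, -0.061 and 0.323 over 9315 genes. The first and the last of these were the highest of all pairs, while control library 2 correlated best with STZ library 1 (0.107). Deviations within a group constrain each other, so these values cannot decide whether equally numbered libraries belong together. The labels give only a number.

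Of 33 named members, 6 changed sign, each only on leaving out 1 library, with log2 differences from -0.031 to 0.13 for Sdhb, -0.19 to 0.13 for Uqcrfs1, -0.18 to 0.12 for Cox4i1, -0.43 to 0.13 for Cox8a, -0.48 to 0.29 for ENSRNOG00000043866 and -0.06 to 0.15 for COX2. Of 593 values, 559 kept their direction and side of the threshold. Scaling moved the median of all rows by at most 0.04. At these depths Ndufs6 and other rows with few reads had wide intervals.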

Other observations

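Among the joint rows of chromosome M, 48 named protein-coding genes that do not lie next to each other. How reads came to be counted in such rows is not given in the sources used here. Their summed normalized counts were 104.6, 45.0 and 81.3 in control and 440.1, 90.0 and 202 in STZ libraries. As a share of all signal on chromosome M this was 0.0299, 0.0166 and 0.0277% in control and 0.135, 0.0363 and 0.0805% in STZ libraries, without overlap between groups. These rows were grouped after the values were seen, and no test was made of the sum. The row joining COX3+ATP8+ATP6 with NU1M read 13.3, 2.29 and 7.79 against 86.4, 20.8 and 38.1, a log2 difference of 2.50 (limma adjusted p = 0.0631). Joint rows that named 1 protein-coding row held 21.4 to 30.7% of the chromosome M signal in control and 28.0 to 30.6% in STZ libraries.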
